A study of Arabidopsis thaliana with 6 samples.

Results

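Autophagy genes were followed across 4 leaf libraries of Arabidopsis thaliana: 10 named loci of the 22183 genes in the count tables. These were 7 genes of the ATG8 family (ATG8a, ATG8b, ATG8e, ATG8f, ATG8g, ATG8h and ATG8i), ATG5, ATG7 and NBR1, taken by locus identifier. The choice was made with earlier results of these data known, so their share of calls is not that of a blind choice. The npr1-1+INA library came from npr1-1 mutants and the hac1/5+INA library from hac1/5 double mutants, both sprayed with 300 µM INA. The Col+INA library came from wild-type Col plants given the same spray, and the Col library from wild-type plants sprayed with water. All were leaves of 4-week-old plants grown in short days and collected after 12 h. NPR1 is the coactivator through which salicylic acid turns on defence genes, HAC1 and HAC5 are histone acetyltransferases of the CBP/p300 family, and INA is a compound that acts in place of salicylic acid. RNA of 3 independent experiments was combined into 1 library per condition, so no difference below has a replicate check. The water-sprayed mutants were not analysed here, and a mutant's level without INA is therefore not part of any comparison.

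Autophagy carries cell material to the vacuole inside a double membrane, the autophagosome. ATG8 is a small ubiquitin-like protein that is joined to a lipid of that membrane: the protease ATG4 trims its end back to a glycine, the enzyme ATG7 activates it, ATG3 transfers it, and a complex of ATG12, ATG5 and ATG16 completes the step. Cargo receptors such as NBR1 bind both ATG8 and ubiquitin-tagged proteins and are broken down with their cargo. In plant leaves autophagy is known for recycling nutrients in starvation and senescence and for shaping the cell death of immune responses.

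The 7 ATG8 genes encode 2 kinds of carboxyl end, and their last 48 coding bases are shown because this difference separates the most abundant member, ATG8i, and ATG8h from the others. The sequences are the coding strand of RefSeq transcripts on TAIR10.1, with the codon of the glycine in the Thr-Phe-Gly motif in capitals and the stop codon last.
ATG8a, chr4:11656762-11656809, forward strand: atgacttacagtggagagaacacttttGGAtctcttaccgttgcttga
ATG8b, chr4:2328663-2328710, reverse strand: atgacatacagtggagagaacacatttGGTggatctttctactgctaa
ATG8e, chr2:18625479-18625526, forward strand: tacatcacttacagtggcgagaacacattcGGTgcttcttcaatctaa
ATG8f, chr4:9306882-9306929, reverse strand: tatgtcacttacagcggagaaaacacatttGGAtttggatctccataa
ATG8g, chr3:22416924-22416971, forward strand: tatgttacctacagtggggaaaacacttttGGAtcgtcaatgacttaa
ATG8h, chr3:1955219-1955266, reverse strand: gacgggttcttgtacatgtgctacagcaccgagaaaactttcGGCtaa
ATG8i, chr3:5274075-5274122, reverse strand: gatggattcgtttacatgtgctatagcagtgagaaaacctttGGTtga
In ATG8h and ATG8i the glycine codon stood directly before the stop codon, with 0 codons between them. The other ATG8 members had 4 (ATG8e, ATG8f and ATG8g) or 5 (ATG8a and ATG8b) further codons after the glycine, the stretch that ATG4 removes.

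The libraries held between 6698569 and 7146973 reads on gene models. The labels were checked first: HAC5 had 2 reads in the hac1/5+INA library, against 122 in Col+INA, while HAC1 had 25 reads against 28, so that the count of HAC5 and not that of HAC1 checks this label. NPR1 transcripts were present in npr1-1+INA (355 reads, against 1115 in Col+INA), and the count of NPR1 therefore does not check that genotype. PR1, the classical salicylic acid marker, had 2 reads in npr1-1+INA and 96 in hac1/5+INA, against 16158 in Col+INA and 4 in Col. All 6 leaf markers on the list (RBCS1A, RBCS3B, RCA, LHCB1.1, LHCB1.3 and PSBO1) were present in every library. Their summed reads were 3.10% of the npr1-1+INA library, 3.79% of hac1/5+INA, 1.88% of Col+INA and 4.75% of Col. LHCB1.3 had the most reads of the 6 in each library. The flower gene AG had 0 or 1 read and the root gene PYK10 between 0 and 20. Of the 6 leaf markers, 3 were called lower and 0 higher with INA in Col, beside 8.49% and 13.9% of all genes tested. Against Col+INA, 1 was called higher in npr1-1+INA and 2 (LHCB1.1 and LHCB1.3) in hac1/5+INA, beside 10.7% and 3.81% of all genes tested. In hac1/5+INA over Col+INA, PSBO1 had a ratio of 1.17, while RBCS1A (0.916), RBCS3B (0.869) and RCA (0.932) lay below 1. Against Col, RBCS3B was called lower in hac1/5+INA (ratio 0.418). In bulk leaf RNA, fewer cells of a type and less RNA per cell cannot be told apart, and the part of either in the values below was not tested.

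Levels are given as RPKM, read counts scaled by gene model length and by the reads of the library, with 95% Poisson intervals that cover counting error only. A gene is represented by the gene model with the most reads. Reads on the other gene model of ATG8a, ATG8b, ATG8e and ATG8f, which have 2 listed, are not in these levels. NBR1 (AT4G24690, chr4:12741033-12744533, forward strand, coordinates of the deposited tables) was the most abundant of the 10 genes, at 81.0 RPKM in npr1-1+INA, 185 in hac1/5+INA, 239 in Col+INA and 74.2 in Col. Its intervals were narrow (232 to 246 RPKM in Col+INA), and only those of npr1-1+INA (76.8 to 85.3) and Col (70.3 to 78.3) overlapped. ATG8i (AT3G15580, chr3:5273895-5275095, reverse strand) was the most abundant ATG8 gene in each library, with 22.5 RPKM in npr1-1+INA, 45.1 in hac1/5+INA, 79.7 in Col+INA and 19.0 in Col. The Col+INA value stood alone, the hac1/5+INA value lay between, and the intervals of npr1-1+INA (18.2 to 27.6) and Col (15.1 to 23.6) overlapped. Below ATG8i, the order of ATG8g, ATG8h and ATG8f in Col+INA was not resolved: they had 14.4 (11.1 to 18.3), 13.6 (10.6 to 17.2) and 13.0 RPKM, with overlapping intervals. ATG8a (8.59 RPKM, 6.36 to 11.4) came next, with an interval that overlapped those of all 3. ATG8e (3.48, 2.03 to 5.58) and ATG8b (0.827, 0.225 to 2.12) closed the order. Their intervals overlapped only slightly. The conjugation genes ATG5 (AT5G17290, chr5:5686945-5689900, reverse strand) and ATG7 (AT5G45900, chr5:18615222-18618560, forward strand) had 22.8 and 11.7 RPKM in Col+INA.

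**Figure D1:**
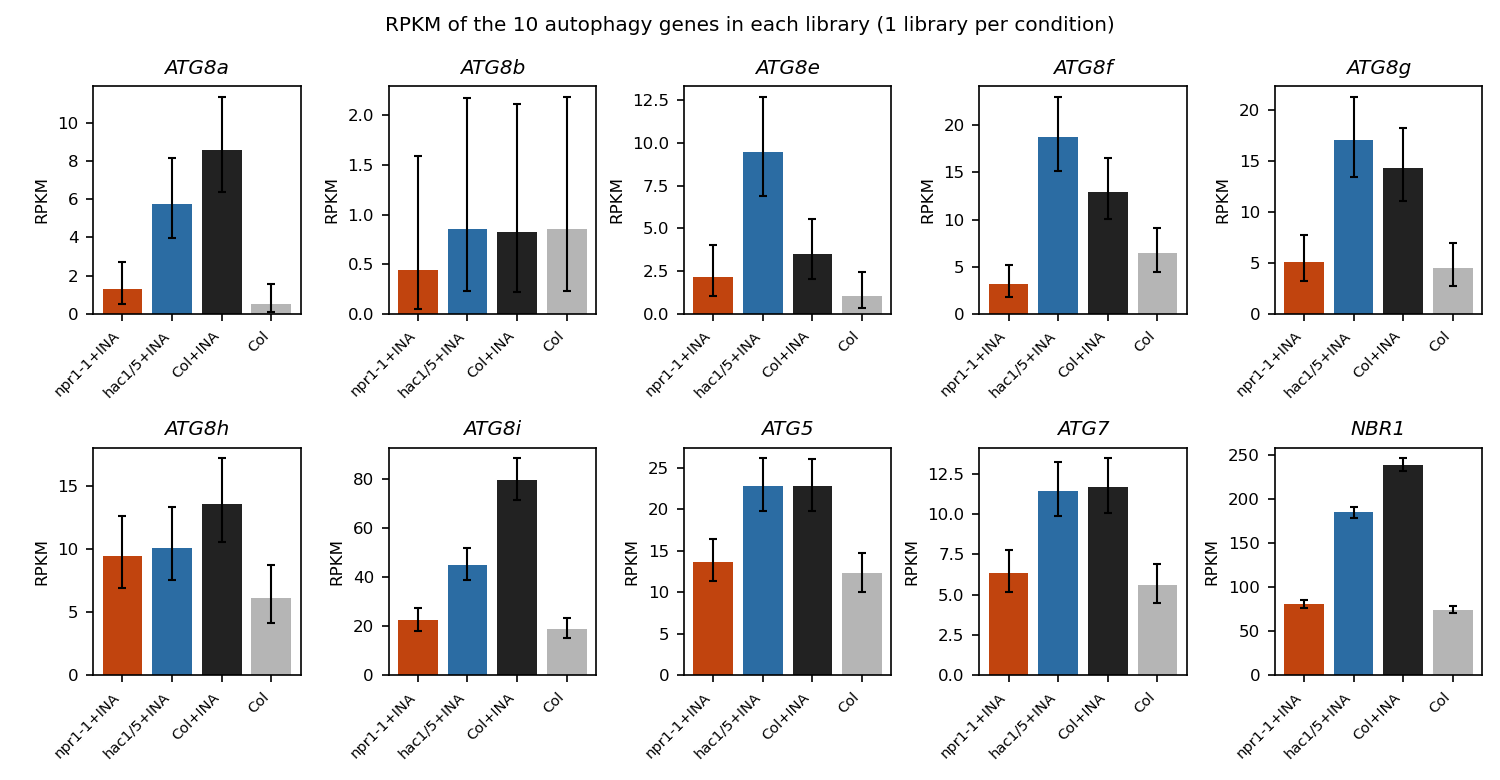
RPKM (vertical axis, its own scale for each gene) of the 10 autophagy genes in the npr1-1+INA, hac1/5+INA, Col+INA and Col libraries, with bars for the value of the 1 library and lines for 95% Poisson intervals. ATG8a, ATG8g, ATG8i, ATG5, ATG7 and NBR1 show low bars in npr1-1+INA and Col and higher bars in hac1/5+INA and Col+INA, and ATG8e, ATG8f and ATG8g have their highest bar in hac1/5+INA.

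Col+INA was set against Col to ask which autophagy genes respond to the salicylic acid analogue. Of the 10 genes, 6 were called higher with INA (ATG8a, ATG8g, ATG8h, ATG8i, ATG7 and NBR1) and 0 lower. A call needed an FDR of no more than 0.01 in an exact binomial test (two-sided) that compared the reads of both libraries, together with a log2 ratio past 1 or -1. Among all genes tested, 13.9% were called higher and 8.49% lower. Among genes whose reads averaged 10 or more over the pair, a floor that 9 of the 10 autophagy genes met, the figures were 19.8% higher and 12.0% lower. The median log2 ratio of the 10 genes was 1.42, beside -0.05 over all genes tested and 0.18 over genes above the floor. The test compares these libraries and not the conditions.

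NBR1, the receptor of ubiquitin-tagged cargo, had 4441 reads in Col+INA, against 1337 in Col. This was 3.22-fold higher (95% interval 3.03 to 3.42), the most precise ratio of the 10. ATG8i had 355 reads in Col+INA, against 82 in Col, a ratio of 4.19 (3.29 to 5.40, exact binomial FDR = 1.71e-38). ATG8a (AT4G21980, chr4:11655589-11657034, forward strand) had the steepest ratio, 15.8-fold (5.10 to 79.3, exact binomial FDR = 8.35e-11). Its interval was wide, since this gene model had 49 reads in Col+INA, against 3 in Col. The second gene model of ATG8a, AT4G21980.2, differed less, with 6 reads in Col+INA, against 4 in Col. The ATG8a call held when reads were summed over gene models. ATG8g (AT3G60640, chr3:22415835-22417158, forward strand) had 66 reads against 20 in Col, 3.20-fold higher (1.91 to 5.57). ATG8h (AT3G06420, chr3:1954990-1956397, reverse strand) had 69 against 30 in Col, 2.23-fold higher (1.43 to 3.54). ATG7, the enzyme that activates both ATG8 and ATG12, had 192 reads in Col+INA, against 89 in Col. It was called at 2.09-fold (1.62 to 2.72), close to the threshold, and lost the call with TMM factors (log2 ratio 0.92) or DESeq2 size factors (0.91) in place of library sums. ATG8h lost it with DESeq2 size factors. Where a biological coefficient of variation of 0.2 was assumed in edgeR's exact test, 3 of the 6 calls passed (ATG8a, ATG8i and NBR1), and at 0.4 none of the 6 did.

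Of the other members, 2 lay just under the fold threshold. ATG8f (AT4G16520, chr4:9306663-9308462, reverse strand) had 66 reads in Col+INA, against 32 in Col, a ratio that before rounding lay just under the fold threshold (2.00, 1.29 to 3.15, exact binomial FDR = 0.00363). ATG5, the partner of ATG12 and ATG16 in the last step of ATG8 lipidation, had 213 reads against 111 in Col, a ratio of 1.86 (1.47 to 2.36, exact binomial FDR = 3.78e-07). ATG8e (AT2G45170, chr2:18624264-18625717, forward strand) had 17 reads in Col+INA, against 5 in Col, and its ratio of 3.29 (1.17 to 11.4) missed the FDR threshold (0.0443, exact binomial test). ATG8b (AT4G04620, chr4:2328449-2330136, reverse strand) had 4 reads in each library, and a difference was not detectable at this depth. Summed over the 7 ATG8 genes, Col+INA held 626 reads and Col 176, a ratio of 3.44 (2.91 to 4.09). Without ATG8i the sum was 271 against 94 in Col, a ratio of 2.79 (2.20 to 3.57).

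The npr1-1+INA library was set against Col+INA to ask how much of these levels needs NPR1. Of the 10 genes, 5 were called lower (ATG8a, ATG8f, ATG8g, ATG8i and NBR1) and 0 higher, beside 13.1% of all genes tested called lower and 10.7% higher, or 18.6% and 14.9% of genes above the floor of 10 reads. All 10 had a ratio below 1, and their median log2 ratio was -1.18, beside 0.09 over all genes tested and -0.07 over genes above the floor. This comparison and the one with Col share the Col+INA library, so a high or low count there moves both ratios. For that reason the values against Col are given beside them.

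NBR1 had 1413 reads in npr1-1+INA, against 4441 in Col+INA, 2.95-fold lower (ratio 0.339, 0.320 to 0.360). Against the 1337 reads of Col, the npr1-1+INA count gave a ratio of 1.09 (1.01 to 1.18), which was not called (exact binomial FDR = 0.0956). ATG8i had 94 reads in npr1-1+INA, against 355 in Col+INA, 3.54-fold lower (ratio 0.283, 0.223 to 0.356). Relative to the 82 reads of Col its ratio was 1.18 (0.871 to 1.61). Both genes thus stood in npr1-1+INA near their levels in water-sprayed wild-type leaves, with 4.15% (NBR1) and 5.78% (ATG8i) of the RPKM difference between Col+INA and Col. ATG8a had 7 reads against 49 in Col+INA, 6.56-fold lower (ratio 0.152, 0.0582 to 0.338). ATG8g had 22 against 66 in Col+INA, 2.81-fold lower (ratio 0.356, 0.209 to 0.584).

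ATG8f had fewer reads in npr1-1+INA than in both wild-type libraries. There were 15 reads in npr1-1+INA, against 66 in Col+INA (4.12-fold lower, ratio 0.242, 0.129 to 0.429) and 32 in Col (ratio 0.484, 0.244 to 0.921). The difference from Col was not called (exact binomial FDR = 0.0862). The conjugation genes were lower by less than the fold threshold. ATG5 had 120 reads in npr1-1+INA, against 213 in Col+INA, a ratio of 0.601 (0.477 to 0.755). ATG7 had 98 against 192 in Col+INA, a ratio of 0.545 (0.423 to 0.698). Their FDR values were 2.51e-05 and 2.93e-06 by the exact binomial test, and the ratios to Col were 1.12 (0.856 to 1.46) for ATG5 and 1.14 (0.845 to 1.53) for ATG7. ATG8h was, with ATG7, one of the genes called with INA and not called lower in npr1-1+INA. It had 45 reads in npr1-1+INA, against 69 in Col+INA, a ratio of 0.696 (0.467 to 1.03, exact binomial FDR = 0.132). Relative to the 30 reads of Col its ratio was 1.55 (0.955 to 2.55). The RPKM of ATG8h in npr1-1+INA lay 44.8% of the way from Col to Col+INA, and neither ratio was resolved from 1. ATG8e (10 reads, against 17 in Col+INA) and ATG8b (2 against 4) were too thinly covered to resolve a difference of this size.

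The 7 ATG8 genes together had 195 reads in npr1-1+INA, against 626 in Col+INA, 3.01-fold lower (ratio 0.332, 0.282 to 0.391). Relative to the 176 reads of Col the ratio was 1.14 (0.929 to 1.41). With an assumed coefficient of variation of 0.2, the calls of ATG8a, ATG8f, ATG8i and NBR1 against Col+INA passed and that of ATG8g did not, and at 0.4 none of the 5 did. Of the 10 genes, 0 were called in either direction between npr1-1+INA and Col, where 3.77% of all genes tested were called higher and 1.77% lower (5.36% and 2.60% of genes above the floor of 10 reads, which 7 of the 10 met).

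**Figure D2:**
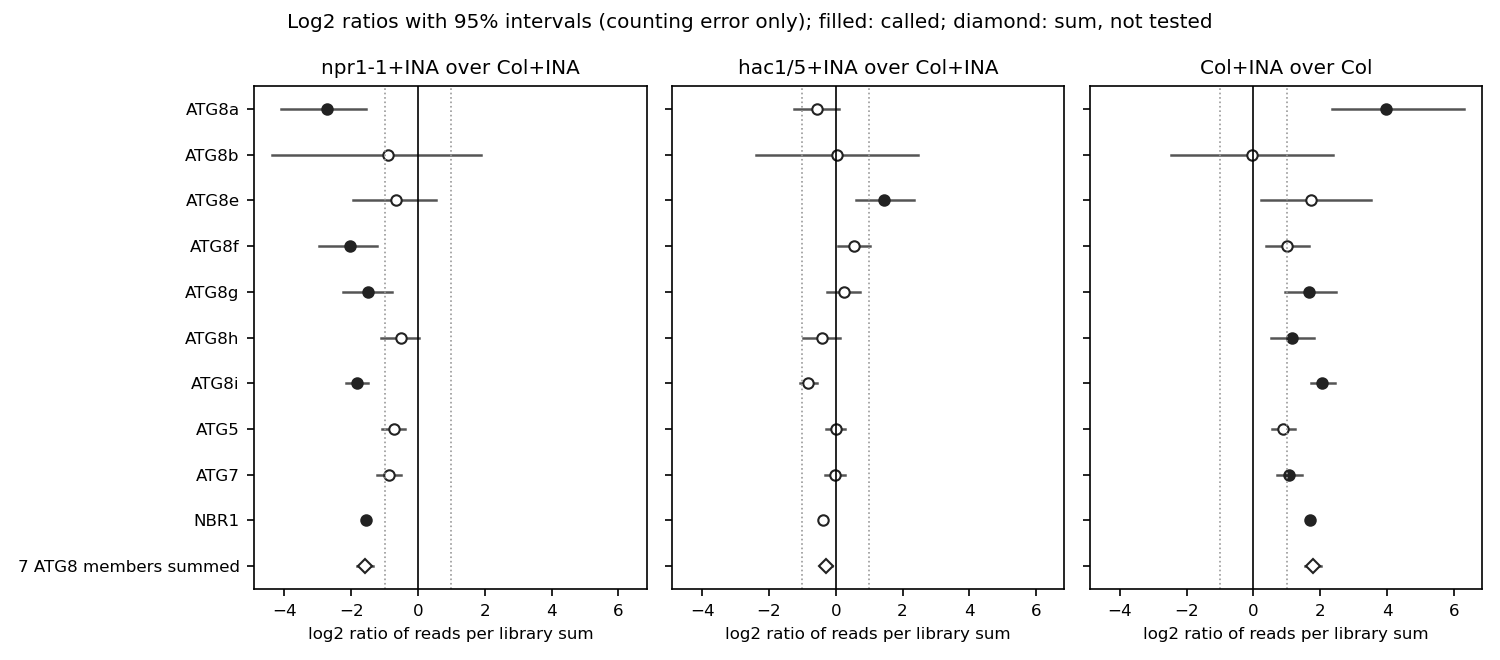
Log2 ratios (horizontal axis) of the 10 genes and of the 7 ATG8 genes summed, for npr1-1+INA over Col+INA, hac1/5+INA over Col+INA and Col+INA over Col, with 95% intervals for counting error. Filled circles were called, diamonds mark the untested sum, and dotted lines mark log2 ratios of 1 and -1. The filled circles lie left of 0 in the first panel (5 genes) and right of 0 in the third (6 genes), and the middle panel has 1, ATG8e.

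The hac1/5+INA library was set against Col+INA to ask the same of the acetyltransferases. Of the 10 genes, 1 was called higher (ATG8e) and 0 lower, beside 3.81% of all genes tested called higher and 5.79% lower, or 5.34% and 8.01% of genes above the floor of 10 reads. The median log2 ratio of the 10 genes was -0.01, beside 0.04 over all genes tested. Against Col, 7 of the 10 were called higher in hac1/5+INA (ATG8a, ATG8e, ATG8f, ATG8g, ATG8i, ATG7 and NBR1), beside 16.0% of all genes tested called higher and 9.60% lower, or 22.5% and 13.1% of genes above the floor. With TMM or DESeq2 size factors 5 of these 7 calls passed (ATG8i and ATG7 did not), and with an assumed coefficient of variation of 0.2 only those of ATG8a, ATG8e and ATG8g did. At 0.4 none of the 7 passed. These comparisons share the hac1/5+INA library.

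ATG8e had 45 reads in hac1/5+INA, against 17 in Col+INA, a ratio of 2.72 (1.53 to 5.08, exact binomial FDR = 0.00161). This call did not pass with an assumed coefficient of variation of 0.2. Against the 5 reads of Col its ratio was 8.97 (3.57 to 29.0). It was also the ATG8 gene whose second gene model, AT2G45170.2, was highest in the same library, at 11 reads, against 6 in Col+INA. ATG8f pointed the same way without a call: it had 93 reads in hac1/5+INA, against 66 in Col+INA, a ratio of 1.45 (1.05 to 2.02, exact binomial FDR = 0.0714). Relative to the 32 reads of Col, ATG8f was called at 2.90-fold (1.92 to 4.47).

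ATG8i and NBR1 had fewer reads in hac1/5+INA than in Col+INA, at low FDR but below the fold threshold. ATG8i had 195 reads in hac1/5+INA, against 355 in Col+INA, a ratio of 0.565 (0.472 to 0.675, exact binomial FDR = 8.83e-10). NBR1 had 3337 against 4441 in Col+INA, a ratio of 0.773 (0.739 to 0.809, exact binomial FDR = 6.44e-28). In hac1/5+INA the RPKM lay 42.9% (ATG8i) and 67.1% (NBR1) of the way from Col to Col+INA. Both genes were called higher than in Col, ATG8i at 2.37-fold (1.82 to 3.11) and NBR1 at 2.49-fold (2.33 to 2.65). The ATG8i call against Col was lost with TMM factors and with DESeq2 size factors (log2 ratio 0.97).

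The conjugation genes gave ratios near 1 with fairly narrow intervals. ATG5 had 207 reads in hac1/5+INA, against 213 in Col+INA, a ratio of 1.00 (0.822 to 1.22). ATG7 had 183 against 192 in Col+INA, a ratio of 0.981 (0.797 to 1.21). The intervals leave room for a difference of about the size of their bounds, and they do not reach the fold threshold. ATG8a had 32 reads in hac1/5+INA, against 49 in Col+INA (ratio 0.672, 0.417 to 1.07), and ATG8h had 50 against 69 (ratio 0.746, 0.508 to 1.09). ATG8g had 76 against 66 (ratio 1.19, 0.841 to 1.67), and ATG8b had 4 reads in each. None of these 4 was called. Relative to Col, ATG8a in hac1/5+INA was 10.6-fold higher (3.33 to 54.3), ATG8g 3.79-fold (2.29 to 6.55) and ATG7 2.05-fold (1.58 to 2.67). ATG5 (ratio 1.86) and ATG8h (ratio 1.66, 1.04 to 2.71) were not called against Col. Summed, the 7 ATG8 genes had 495 reads in hac1/5+INA, against 626 in Col+INA, a ratio of 0.814 (0.722 to 0.917). Without ATG8i the sum was 300 against 271, a ratio of 1.14 (0.963 to 1.35), so ATG8i alone decided on which side of 1 the sum lay.

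The share of each ATG8 gene in the total of the 7 members is given as a description, with no test. It counts 1 gene model per gene, though ATG8a, ATG8b, ATG8e and ATG8f have 2 listed. How this divides their reads was not tested, and all shares are uncertain to that extent. The summed RPKM of the 7 genes was 44.1 in npr1-1+INA, 107 in hac1/5+INA, 134 in Col+INA and 38.5 in Col. ATG8i made up 51.0% of the sum in npr1-1+INA, 42.1% in hac1/5+INA, 59.7% in Col+INA and 49.3% in Col. ATG8f took 7.11% in npr1-1+INA, 17.5% in hac1/5+INA, 9.70% in Col+INA and 16.8% in Col. ATG8e, a minor member elsewhere, took 8.86% in hac1/5+INA, beside 4.95% in npr1-1+INA, 2.61% in Col+INA and 2.74% in Col. ATG8h, which like ATG8i ends at its glycine, had its largest share in npr1-1+INA, at 21.4%, beside 9.44% in hac1/5+INA, 10.2% in Col+INA and 15.8% in Col. Between npr1-1+INA and Col+INA, the ratio intervals of the members that end at the glycine did not overlap (0.467 to 1.03 for ATG8h, 0.223 to 0.356 for ATG8i).

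**Figure D3:**
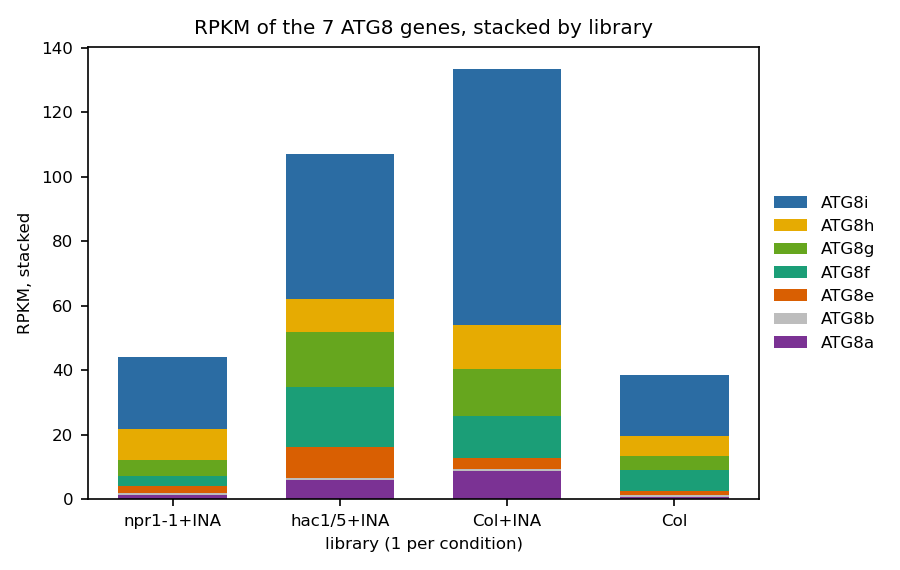
Stacked RPKM (vertical axis) of the 7 ATG8 genes in npr1-1+INA, hac1/5+INA, Col+INA and Col, 1 library each. The stacks reach 44.1, 107, 134 and 38.5 RPKM, ATG8i is the largest block in each, and the ATG8e and ATG8f blocks are tallest in hac1/5+INA.

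ATG8a, ATG8b, ATG8e and ATG8f have 2 listed gene models each, and ATG8g, ATG8h, ATG8i, ATG5, ATG7 and NBR1 have 1. Over all genes, those with more than 1 listed gene model had a median of 0.815 RPKM in Col+INA and those with 1 had 4.62. The counting of a read that matches more than 1 gene model is not given in the sources used here, and its part in the ATG8a, ATG8b, ATG8e and ATG8f levels was not tested. When reads were summed over gene models, ATG8e (log2 ratio 2.16) and ATG8f (1.04) were also called higher with INA in Col. Transcripts of ATG8a and ATG8b share a stretch of 53 identical bases, the longest among the ATG8 genes, and 65 bases with up to 2 mismatches, the number the aligner allowed. Reads from such stretches cannot be assigned surely, and ATG8a and ATG8b counts are uncertain to that extent.

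NPR1 binds TGA factors, which is why promoter sequence was looked at. The 250 bases before the start of each deposited gene model were searched on both strands for TGACG, the core that TGA factors recognise, and for TTGAC, the core of the W-box of WRKY factors. TGACG occurred in 8 of the 10 windows (all 7 ATG8 genes and ATG5), beside 21.3% of 22038 windows of all genes. TTGAC occurred in 5 of 10, beside 44.8%. The windows of 3 genes are printed, on TAIR10.1 and in the direction of transcription with both motifs in capitals: ATG8a for the steepest INA ratio, ATG8i for the most abundant ATG8 gene, and NBR1 as the member with the most reads and no TGACG.
ATG8a, chr4:11655339-11655588, forward strand: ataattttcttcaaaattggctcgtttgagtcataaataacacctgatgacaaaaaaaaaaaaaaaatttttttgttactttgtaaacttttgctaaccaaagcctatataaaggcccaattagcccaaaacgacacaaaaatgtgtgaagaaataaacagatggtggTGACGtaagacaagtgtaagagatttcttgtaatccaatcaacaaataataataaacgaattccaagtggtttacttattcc
ATG8i, chr3:5275096-5275345, reverse strand: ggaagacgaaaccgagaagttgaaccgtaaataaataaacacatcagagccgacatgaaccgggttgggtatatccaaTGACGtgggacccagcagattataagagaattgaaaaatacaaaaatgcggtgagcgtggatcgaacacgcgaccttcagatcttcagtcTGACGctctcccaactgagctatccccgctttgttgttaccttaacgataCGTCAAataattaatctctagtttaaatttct
NBR1, chr4:12740783-12741032, forward strand: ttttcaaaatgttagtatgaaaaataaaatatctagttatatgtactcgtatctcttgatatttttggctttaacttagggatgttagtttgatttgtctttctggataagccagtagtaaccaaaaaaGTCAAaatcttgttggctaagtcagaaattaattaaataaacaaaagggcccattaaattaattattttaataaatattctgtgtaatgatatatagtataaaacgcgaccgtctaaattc
In the ATG8a window TGACG begins 82 bases before the start. The ATG8i window holds it 172 and 82 bases before the start and, on the other strand, at 32 bases, where it overlaps a TTGAC at 31. The ATG8i copy at 82 bases lies inside a tRNA gene (AT3G15585, chr3:5275149-5275221) annotated on the opposite strand. NBR1 has TTGAC 121 bases before the start, on the reverse strand, and ATG7 has TTGAC at 42 bases and no TGACG. The windows are not all upstream of transcription: the RefSeq gene starts earlier for ATG8a, ATG8b, ATG8f, ATG8g, ATG5, ATG7 and NBR1, and the ATG8h window overlaps the neighbouring gene AT3G06430 over 239 bases. The only TGACG of the ATG8h window, 89 bases before the start, lies inside AT3G06430. With windows set from the RefSeq start instead, TGACG occurred in 6 of 10 (ATG8a, ATG8e, ATG8f, ATG8g, ATG8h and ATG8i), beside 19.2% of 21198 windows, and TTGAC in 4 of 10, beside 45.1%. A match describes letters in a window and does not show that a factor binds there. Of the 6 genes called higher with INA, ATG8a, ATG8g, ATG8h and ATG8i held TGACG in both sets of windows, and ATG7 and NBR1 in neither. Among the genes not called, ATG8e and ATG8f also held it in both sets. ATG8b and ATG5 held it only in the windows before the deposited gene models.

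The other 42 autophagy genes on the list were all found, and 26 of them averaged 10 reads or more over Col+INA and Col. Of the 42, 7 were called higher with INA in Col and 0 lower, with a median log2 ratio of 0.43. That is 16.7% of the list, near the 13.9% of all genes tested and under the 19.8% of genes above the floor. With TMM factors or DESeq2 size factors 3 of the 7 calls passed (ATG18d, RPN10 and DSK2b), so ATG8c, ATG1a, VPS34 and ATG12a lost theirs, and with an assumed coefficient of variation of 0.2 only that of DSK2b did. In npr1-1+INA, 5 were called lower than in Col+INA and 0 higher, with a median of -0.41. This is 11.9% of the list, beside 13.1% of all genes tested and 18.6% of genes above the floor, and 2 of the 5 calls (ATG13b and DSK2b) passed at a variation of 0.2. RPN10 lost its call there under both scalings. In hac1/5+INA, 1 was called higher than in Col+INA and 0 lower, with a median of 0.12, beside 3.81% of all genes tested called higher. At a variation of 0.2 that call did not pass. The counts of calls among the 42 genes thus lay near or under those of all genes, and what follows describes single genes.

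Of the 6 cargo receptors and adaptors, 2 were called higher with INA and 3 lower in npr1-1+INA. In each pair 4 of the 6 averaged 10 reads or more. Over all genes tested the shares were 13.9% and 13.1%, and the counts are too small to set against them. DSK2b, a ubiquitin receptor that can deliver cargo to ATG8, had 633 reads in npr1-1+INA, 2066 in hac1/5+INA, 2532 in Col+INA and 687 in Col. DSK2b was 3.57-fold higher with INA in Col (3.28 to 3.89), and npr1-1+INA was 3.75-fold below Col+INA (ratio 0.267, 0.244 to 0.291). RPN10, a proteasome subunit that also serves as receptor for proteasomes taken up by autophagy, had 485 reads in npr1-1+INA, 974 in hac1/5+INA, 1066 in Col+INA and 459 in Col. It was 2.25-fold higher with INA in Col (2.01 to 2.51), and npr1-1+INA was 2.06-fold below Col+INA. DSK2a was called lower in npr1-1+INA, with 593 reads against 1339 in Col+INA (ratio 0.473, 0.428 to 0.521). DSK2a and DSK2b share 116 identical bases in a row, so reads between them are uncertain.

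In the ATG1 kinase complex, which starts autophagosome formation, ATG1a was called with INA (89 reads in Col+INA, against 43 in Col, 2.00-fold, 1.38 to 2.96) and lower in npr1-1+INA (40 reads, ratio 0.480). ATG13b, a regulatory subunit of that kinase, was called lower in npr1-1+INA, with 46 reads against 158 in Col+INA (ratio 0.311, 0.219 to 0.434). ATG11, the scaffold of the complex and its most abundant member, had 202 reads in Col+INA, against 346 in Col, a ratio of 0.565 (0.473 to 0.674) that was not called. Of the 3 genes of the complex that averaged 10 reads or more, it was the one with a ratio below 1.

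Among lipid transfer and membrane supply genes, ATG2 had its highest count in hac1/5+INA. It had 215 reads in npr1-1+INA, 407 in hac1/5+INA, 191 in Col+INA and 102 in Col. ATG2 was called higher in hac1/5+INA than in Col+INA (2.19-fold, 1.84 to 2.62) and higher in npr1-1+INA than in Col (2.18-fold, 1.71 to 2.78), the single call of the 42 genes in each comparison. ATG18d was 2.61-fold higher with INA (54 reads in Col+INA, against 20 in Col), and ATG18g, the most abundant of this group, was not called (629 reads against 805 in Col). VPS34, the lipid kinase of the phosphatidylinositol 3-kinase complex, had 727 reads in Col+INA, against 326 in Col, 2.16-fold higher (1.89 to 2.47).

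Of 7 further conjugation genes, ATG12a was called with INA (40 reads in Col+INA, against 15 in Col, 2.58-fold, 1.40 to 5.03). ATG3, the most abundant of them, was not (258 against 169 in Col). Of the 2 other ATG8 genes, ATG8c was called with INA (114 reads in Col+INA, against 52 in Col, 2.12-fold, 1.52 to 3.01). ATG8d had 16 against 6 and was not called. Of 4 genes of the TOR and SnRK1 kinase complexes, which restrain or promote autophagy according to nutrient status, 0 were called with INA. Over all genes tested 13.9% were called higher and 8.49% lower. Only 2 of the 4 averaged 10 reads or more, so a difference in the others was hardly detectable (TOR 2 reads in Col+INA, against 8 in Col, and KIN11 9 against 10). RAPTOR1B had 1110 reads in Col+INA, against 959 in Col. Against Col, 9 of the 42 genes were called higher in hac1/5+INA, among them ATG4b (40 reads against 17) and ATG18d (78 against 20). This is 21.4% of the list, between the 16.0% of all genes tested and the 22.5% of genes above the floor. Under both scalings 6 of the 9 calls passed, without ATG8c, ATG4b and RPN10.

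**Figure D4:**
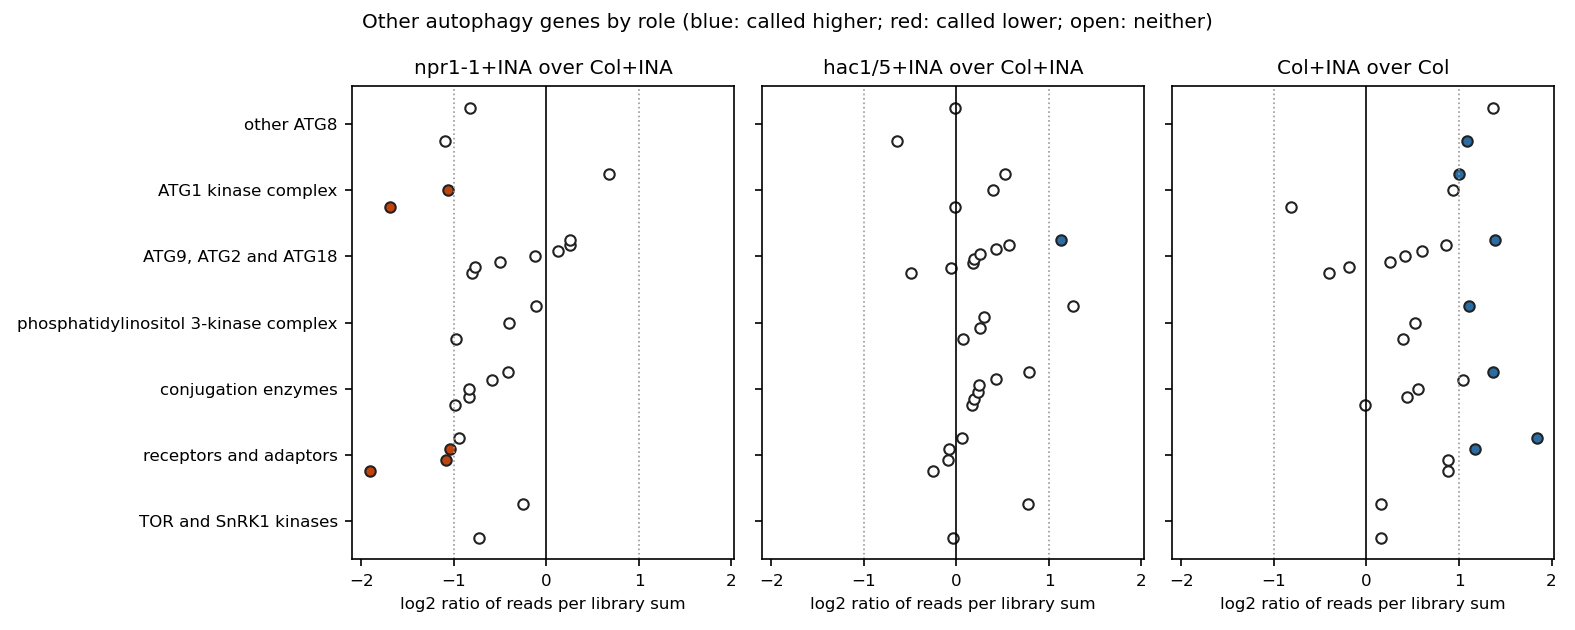
Log2 ratios (horizontal axis) of the other autophagy genes with at least 20 reads in the pair, grouped by role, for npr1-1+INA over Col+INA (26 of 42 genes), hac1/5+INA over Col+INA (29) and Col+INA over Col (26). Blue points were called higher, red points lower and open points neither, and dotted lines mark log2 ratios of 1 and -1. Red points appear only among the ATG1 kinase complex and the receptors and adaptors.

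Starvation and senescence genes were read in the same libraries, since autophagy genes also rise in both states. Of 5 carbon starvation genes found, 0 were called in Col+INA against Col or in npr1-1+INA against Col+INA, but only DIN9 averaged 10 reads or more. Over all genes tested, 13.9% were called higher and 8.49% lower in the first pair, and 10.7% and 13.1% in the second. DIN9 had 208 reads in npr1-1+INA, 55 in hac1/5+INA, 129 in Col+INA and 150 in Col. The hac1/5+INA count was called lower against both Col+INA (ratio 0.439, 0.314 to 0.606, exact binomial FDR = 1.07e-06) and Col (ratio 0.365, 0.263 to 0.501). Of 5 senescence genes found, 3 (SAG13, SAG21 and PAO) were called higher with INA in Col, and 4 (those and ORE1) were called lower in npr1-1+INA, beside 13.9% and 13.1% of all genes tested. SAG21 had 17 reads in npr1-1+INA, 282 in hac1/5+INA, 247 in Col+INA and 19 in Col. PAO, the chlorophyll-degrading oxygenase, had 797 reads in npr1-1+INA, 1782 in hac1/5+INA, 2301 in Col+INA and 891 in Col. NYE1 differed from both in hac1/5+INA, with 352 reads, beside 357 in npr1-1+INA, 667 in Col+INA and 333 in Col. Its ratio of hac1/5+INA to Col+INA was 0.543 (0.476 to 0.619), which was not called. In hac1/5+INA, 0 of the 5 senescence genes were called against Col+INA. Against Col, 2 (SAG13 and SAG21) were called higher, beside 16.0% of all genes tested. Whether the autophagy values depend on senescence was not tested.

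The genes whose pattern over the 4 libraries was nearest to that of the summed ATG8 genes were AT1G68300, SEC22 (AT1G11890) and RPT3 (AT5G58290), by Euclidean distance of centred log2(RPKM + 1) among 7946 genes with at least 50 reads in every library. The distances were 0.0554, 0.0678 and 0.0878. SEC22, a vesicle fusion protein, had 367 reads in npr1-1+INA, 903 in hac1/5+INA, 1236 in Col+INA and 336 in Col, and was also nearest to NBR1 (0.104). RPT3, an ATPase of the proteasome, had 644, 1706, 2053 and 566 reads. With 4 libraries many genes can lie close by, and the distances are a description.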

How the data were processed

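RNA-seq of leaves was analysed for 4 of the 6 conditions, 1 library each. SOAPaligner/soap2 was used by the authors to align reads with at most 2 mismatches. They deposited 3 tables with raw read counts per gene model. Their deposited RPKM are the counts scaled by gene model length and library sum, and recomputed values differed by at most 5.80e-08 (log2). The genome was TAIR10 per the submitters' processing notes. Columns of the authors' own comparisons (log2 ratio, p-value, FDR) were not used, and 0 columns belonged to no sample.

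Libraries were compared by an exact binomial test, two-sided, with Benjamini-Hochberg adjustment over all gene models with reads in the pair (SciPy 1.17.1), at the study's thresholds of FDR 0.01 and log2 ratio 1. Ratio intervals are Clopper-Pearson (95%). Medians set counts under 3 reads to 3. Library sums were 6698569 (npr1-1+INA), 6944614 (hac1/5+INA), 7146973 (Col+INA) and 6920927 (Col). Alternatives used edgeR 4.0.16 and DESeq2 1.42.0 scaling and an edgeR exact test with an assumed variation. Sequences are from RefSeq TAIR10.1: 21194 of 21199 matched genes overlapped the deposited coordinates on the same strand. The named genes were all 10 members and each other autophagy gene called in at least 1 comparison. In each role the gene with the highest mean RPKM was also named. Members, lists and tests were chosen with earlier results of these data known. Of the listed starvation, senescence and organ genes, 5 were not analysed here.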

Additional observations from a re-analysis of the deposited data

How the results depend on the processing

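Of 494 single-gene values under 10 alternatives, 436 kept direction and call, 44 lost the call, 10 gained it and 4 reversed, all 4 for ATG8b, which had at most 4 reads in a library. These were Col+INA over Col (0.22 with reads summed over gene models, -0.05 before), npr1-1+INA over Col (0.05 summed, -0.95 before) and hac1/5+INA over Col+INA (-0.07 with TMM factors, -0.08 with DESeq2 size factors, 0.04 before). The 436 include values that were not called in the main setting and so had no call to lose. Of the 44 lost calls, 19 were lost at an assumed coefficient of variation of 0.4. The main limit is the unmeasured variation between plants. In an edgeR exact test where the biological coefficient of variation was set to 0.2, 3 of 10 members (ATG8a, ATG8i and NBR1) and 1 of the 42 other autophagy genes were called higher in Col+INA than in Col. In npr1-1+INA 4 members and 2 other genes were called lower than in Col+INA. In hac1/5+INA 0 members and 0 others were called higher than in Col+INA, and 3 members and 4 others higher than in Col. For npr1-1+INA against Col, 0 others were called. At 0.4, 0 members and 0 others were called in any comparison, beside 403 genes called higher and 29 lower over all genes in Col+INA against Col. Over all genes, a variation of 0.2 gave 1609 higher and 715 lower there, 967 and 1527 in npr1-1+INA, and 107 and 490 in hac1/5+INA, against 2939 and 1791, 2270 and 2776, and 800 and 1215. TMM factors moved every log2 ratio of Col+INA over Col by -0.14, of hac1/5+INA over Col+INA by -0.11 and of hac1/5+INA over Col by -0.25. DESeq2 size factors moved them by -0.16, -0.12 and -0.28. Calls higher and lower over all genes became 2432 and 2257 (Col+INA over Col), 573 and 1405 (hac1/5+INA over Col+INA), 2437 and 2671 (hac1/5+INA over Col, 3363 and 2019 before) and 594 and 465 (npr1-1+INA over Col, 787 and 370 before) with DESeq2. Under both scalings ATG7 lost its call in Col+INA over Col (0.92 and 0.91), and 3 other genes in place of 7 were called higher. ATG8h lost its call under DESeq2 (1.00). ATG7 and ATG8i lost theirs in hac1/5+INA over Col. With an FDR of 0.2, other genes called were 11 higher and 2 lower in Col+INA over Col, 2 higher in npr1-1+INA over Col+INA, 4 higher and 1 lower in hac1/5+INA over Col+INA, and 2 higher in npr1-1+INA over Col, where 1 member (ATG8f) became lower. A log2 threshold of 1.5 left 1 other gene higher in Col+INA over Col, 2 lower in npr1-1+INA over Col+INA, 0 members and 0 others in hac1/5+INA over Col+INA, 0 others in npr1-1+INA over Col, and 4 members and 4 others in hac1/5+INA over Col. A threshold of 0.5 gave 14 others higher and 1 lower, 1 higher and 10 lower, 2 higher with 1 member lower (ATG8i), and 16 higher in hac1/5+INA over Col. In hac1/5+INA over Col+INA, summing gene models gave 2 others higher and log2(RPKM + 1) gave 0. The log2(RPKM + 1) scale also gave 0 in npr1-1+INA over Col. With a 500-base window, chosen after seeing the data, TGACG occurred in 8 of 10 windows, beside 34.6% of all, and TTGAC in 7 of 10, beside 67.3%. The windows from RefSeq starts were also chosen after seeing the data. No paired analysis was possible because each condition is 1 library with no replicate number, and no replicate could be left out.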
